A study of Mus musculus with 48 samples.

Results

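Regulatory T cells (Tregs) from the spleens of mice given 3x were compared between animals whose MHC class II had been blocked and animals given an isotype control antibody. The libraries were taken by their labels alone: Treg as the cell type, 3x as the IL-2, and either the blocking antibody (4 libraries) or the isotype (4 libraries). These are 8 of the 48 libraries of the study and 8 of its 32 Treg libraries. All 8 mice were female C57BL/6 animals of 8 to 12 weeks, and each library came from 1 mouse. Every mouse had 2 intraperitoneal injections of 500 µg antibody, on day −1 and on day 0, either the isotype (clone LTF-2) or the blocking antibody (clone M5/114). On day 0 each mouse also received 25 µg of 3x under the skin, and its spleen was taken on day 4. 3x is an Fc-fused human IL-2 with substituted residues that weaken its signal. Tregs were isolated on beads and enriched for CD25, so a library stands for an enriched fraction and not for sorted single cells. The study asked how much of the response to IL-2 depends on the signal through the T cell receptor (TCR). Where another treatment bears on a result, the same pair of antibodies was available with PBS, with H16R (a second attenuated IL-2) and with wild-type IL-2 (WT), in 4 libraries each. In the isotype WT group 2 of the 4 libraries carry the same replicate label, so whether they came from separate mice is not given by the labels. Conventional T cells (Tcons, the CD25-depleted flow-through) were sequenced from 2 of the same 4 mice per antibody under 3x.

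Tregs are CD4 T cells that carry the transcription factor Foxp3 and restrain other immune cells. Their TCR reads peptides held by MHC class II on dendritic cells, B cells and macrophages, and an antibody that covers MHC class II withholds that contact. Behind the TCR, the kinases Lck and Zap70 feed calcium and NFAT, the MAPK cascade with AP-1, and NF-kB. These switch on early response genes such as the Nr4a and Egr families, as well as phosphatases and other inhibitors that damp the same pathways. IL-2 signals separately, through Jak1, Jak3 and STAT5.

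The isotype libraries held 38.19 to 49.91 M expected counts and the block libraries 35.46 to 46.57 M. Among the 8 libraries the first principal component took 67.8% of the variance and split the antibodies, with no isotype library on the block side. Block replicate 2 stood apart from the other block libraries on the second component, which took 8.5%. Where a list's count without that library differs in a way that matters, both are given. Each fold change below is the block level over the isotype level on the log2 scale with its standard error, and levels are CPM (counts scaled to the size of the library) in replicates 1 to 4 of a group. A gene was called at an adjusted p under 0.1 in edgeR's quasi-likelihood test, adjusted by the Benjamini-Hochberg method over 12392 genes.

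With the block under 3x, most early TCR response genes and most genes of resting, lymph node homing Tregs were lower. Most listed genes of effector Tregs, chemokine receptors, cell division and the interferon response were higher. Of 12392 genes tested, 6705 (54.1%) were called, 3368 of them higher (27.2%) and 3337 lower (26.9%) with the block. Scaled by total counts alone, 4023 were higher and 2642 lower. In the limma test on log2(FPKM + 0.1), 3906 were higher and 2546 lower. In the main test, 658 of the called genes changed by at least 1 log2, 597 of them higher and 61 lower. The counts of each gene group below are to be read against these shares. Most changes were small, with a median size of 0.29 log2 among called genes. Large changes were mostly rises: 597 genes rose and 61 fell by at least 1 log2, and 220 rose and 1 fell by at least 2. The levels of the 2 groups did not overlap in 2650 genes that were higher (21.4%) and 2608 that were lower (21.0%) with the block. The median change over all tested genes was −0.003.

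The libraries were checked first for Treg identity. Foxp3, the factor that defines the lineage, stood at 1132, 1106, 1158 and 1136 CPM with the isotype and at 1125, 1009, 1029 and 969 CPM with the block. The groups lay close together and the gene fell by 0.13 ± 0.06 (edgeR adjusted p = 0.0492), a call that was lost without isotype replicate 3 or 4 or block replicate 2 or 4 (edgeR adjusted p of up to 0.148) and with scaling by total counts. Of 12 tested Treg identity genes, 7 fell and 2 rose, with a median of −0.23. Il2ra, which encodes the CD25 chain of the IL-2 receptor that the cells were selected on, rose by 0.31 ± 0.09, and Ikzf2, encoding the factor Helios, fell by 0.34 ± 0.10 (edgeR adjusted p = 0.00836 and 0.0078). The 9 listed T cell markers, which include the CD3 chains, summed to 3940 to 4150 CPM with the isotype and 3790 to 4040 CPM with the block. Of the 6 of them that were tested, 1 fell and none rose.

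Transcripts of other spleen cells were present in all 8 libraries and were higher with the block. The 15 B cell markers summed to 1780, 2180, 2570 and 1550 CPM in the isotype libraries and to 8430, 12400, 6790 and 9430 CPM in the block libraries. All block libraries were above all isotype libraries, and 5 of the 11 tested B cell markers were called higher. Most of these sums came from immunoglobulin genes, and the B cell receptor subunit Cd79a was at 4.64, 5.06, 4.51 and 3.40 CPM with the isotype and 11.4, 16.6, 21.5 and 14.6 CPM with the block. In Tregs of mice given isotype and PBS the same list summed to 9200 to 17100 CPM. The 8 plasma cell markers, 7 of them higher, summed to 393 to 476 CPM with the isotype and 972 to 1800 CPM with the block. The erythroid markers, with all 8 tested members higher, summed to 7.84 to 10.5 CPM and 25.2 to 36.4 CPM. The natural killer (NK) cell markers, 6 of 8 higher, summed to 81.0 to 90.5 CPM and 278 to 445 CPM. Of the defining NK receptors, Ncr1 was at 1.60, 2.50, 2.67 and 1.96 CPM with the isotype and 7.56, 10.0, 7.31 and 7.49 CPM with the block, while Klrb1c (0.23 ± 0.21 log2) was not called. For dendritic cell markers the ranges were 90.9 to 103 and 146 to 159 CPM (9 of 10 higher), and for MHC class II genes 299 to 356 and 470 to 575 CPM (6 of 10 higher, 1 lower). The 12 monocyte and macrophage markers summed to 22.5 to 28.7 and 54.0 to 75.8 CPM (3 of 9 tested higher), and the pair of CD8 genes to 9.61 to 11.3 and 13.3 to 35.7 CPM (2 of 2). The 10 neutrophil markers summed to 0.645 to 1.23 and 1.53 to 7.48 CPM, with 1 of 7 tested higher and 0 without block replicate 2. Among these, 1 neutrophil marker was at 0 in every isotype library, and 1 erythroid marker, the globin gene Hba-a2, had no value in any of the 8 libraries. The part of these cells in the rises described here was not tested, and in bulk libraries a change in the number of cells of a type and a change in RNA per cell cannot be told apart.

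**Figure D1:**
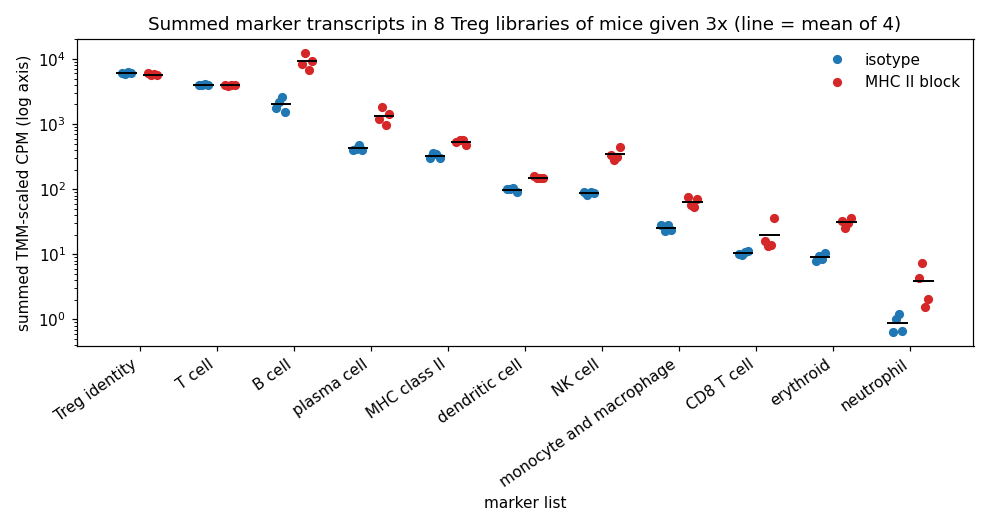
Summed CPM (log axis) of the Treg identity list and of each marker list along the horizontal axis, 1 point per library, isotype and MHC II block side by side, with a line at the mean of 4. The B cell, plasma cell, NK cell and erythroid sums of the block libraries all lie above those of the isotype libraries, while the T cell sums overlap.

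Among the TCR response genes, 13 of 21 tested fell and 4 rose with the block, and the median was −0.36. Nr4a2, an orphan nuclear receptor switched on early after TCR engagement, was at 60.7, 74.7, 73.5 and 76.6 CPM with the isotype and 25.6, 43.5, 35.8 and 22.8 CPM with the block. Every block library was below every isotype library, and the gene fell by 1.17 ± 0.17 (edgeR adjusted p = 3.42e-06). Its relatives Nr4a3 and Nr4a1 fell by 1.08 ± 0.15 and by 0.76 ± 0.11 (edgeR adjusted p = 2.23e-06 and 2.94e-06). Cd69, an early surface marker of activation, fell by 0.90 ± 0.08. Outside the list, Cd83, a surface protein of activated lymphocytes and mature dendritic cells, was at 62.5, 95.3, 88.3 and 79.9 CPM with the isotype and 27.6, 42.4, 30.1 and 26.7 CPM with the block, again without overlap. The difference was larger than the spread within either group, and Cd83 fell by 1.36 ± 0.17 (edgeR adjusted p = 2.76e-07). The early factors Egr1 and Egr2 (0.03 and 0.11 log2) and Irf4 (−0.11 log2), which also stands in the plasma cell list, were not called (edgeR adjusted p = 0.802, 0.341 and 0.451).

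The AP-1 list had 9 of 12 members lower and 3 higher, with a median of −0.53. Fosb, a Fos family member, and Mafk, a small Maf protein, had the largest falls of the list, with −0.84 ± 0.12 and −0.84 ± 0.07 (edgeR adjusted p = 1.84e-06 and 1.33e-10). Maff, a relative of Mafk that is not in the list, was at 35.0, 36.7, 39.9 and 47.3 CPM with the isotype and 11.6, 19.2, 16.6 and 11.7 CPM with the block. The block libraries were all below the isotype libraries, and Maff fell by 1.43 ± 0.12 (edgeR adjusted p = 6.24e-10). Junb fell by 0.58 ± 0.07, while Batf, an AP-1 factor of effector Tregs, rose by 0.61 ± 0.08 (edgeR adjusted p = 9.25e-08 and 1.03e-06). Of 14 NF-kB genes, 7 fell and 2 rose. Rel, the subunit downstream of the TCR, went from 344 ± 32.6 to 176 ± 40.9 CPM (mean ± SD, n = 4), and Tnfaip3, encoding the inhibitor A20, from 5236 ± 365 to 2518 ± 410 CPM. They fell by 0.97 ± 0.15 and 1.06 ± 0.10 (edgeR adjusted p = 1.34e-05 and 2.18e-09). Bcl3, an atypical IkB protein, moved the other way and rose by 1.25 ± 0.12 (edgeR adjusted p = 2.23e-09).

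The promoter of Maff is shown because it was the only promoter among those of the 12 largest falls that held the cAMP response element TGACGTCA, a site of CREB and ATF factors. The window is the 250 bases before the RefSeq start, on the plus strand of GRCm38.p6 at chr15:79347270-79347519, and the capitals mark the match, whose first base is 29 bases before the start.
Maff: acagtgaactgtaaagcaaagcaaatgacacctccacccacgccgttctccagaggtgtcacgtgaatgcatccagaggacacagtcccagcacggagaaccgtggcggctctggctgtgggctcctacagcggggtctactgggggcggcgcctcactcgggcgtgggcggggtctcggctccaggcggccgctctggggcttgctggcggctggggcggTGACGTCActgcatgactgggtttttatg
RefSeq windows were matched for 8 of the 12 largest falls, and 1 held TGACGTCA. Among genes with a window, 2.03% of all 27025, 3.54% of the tested and 4.17% of those called lower held it. Here and below, such shares count genes with a match in any of their whole windows, of which the first 250 bases are printed. None of the 8 held the AP-1 site TGANTCA on either strand, which 8.97%, 6.09% and 5.30% of these did.

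Inhibitors that act downstream of the TCR fell as well. In the list of MAPK feedback genes 13 of 17 members were lower and 4 higher, with a median of −0.30. Dusp10, a phosphatase of the JNK and p38 kinases, was at 226, 249, 260 and 294 CPM with the isotype and 87.7, 118, 109 and 83.4 CPM with the block. The highest block library held less than the lowest isotype library, and the gene fell by 1.37 ± 0.15 (edgeR adjusted p = 3.32e-08). Dusp6, a phosphatase of ERK, fell by 0.96 ± 0.08 (edgeR adjusted p = 5.97e-10). The TCR complex and its proximal kinases and adaptors moved little as a group, with 4 of 22 higher, 5 lower and a median of −0.03. Within it Zap70, the kinase recruited to the phosphorylated receptor, rose by 0.47 ± 0.06 (edgeR adjusted p = 2.67e-07). Among calcium and NFAT genes 6 of 17 rose and 6 fell, shares not far from those of all genes.

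The 12 largest falls among genes with no overlap and a mean over 5 CPM were Rgcc, Ccr7, Maff, Zbtb10, Dusp10, Cd83, Zfyve28, Ciart, Dnah7a, Vps37b, Klf4 and Nr4a2, from −1.67 to −1.17 log2. Rgcc, a regulator of cell cycle kinases, was at 43.5, 45.0, 48.5 and 52.5 CPM with the isotype and 12.5, 20.1, 14.9 and 12.3 CPM with the block, and fell by 1.67 ± 0.12 (edgeR adjusted p = 2.63e-11). Ccr7, the receptor that guides T cells into lymph nodes and the T cell zone, was at 316, 324, 304 and 380 CPM and 92.2, 141, 122 and 92.9 CPM. In both genes block replicate 2 was the highest block library and still lay far below the isotype libraries, and Ccr7 fell by 1.56 ± 0.13 (edgeR adjusted p = 3.17e-10). Klf4, a factor linked to T cell quiescence, went from 272 ± 40.5 to 116 ± 20.5 CPM, and Ciart, a repressor in the circadian clock, from 19.3 ± 1.87 to 7.73 ± 0.820 CPM (mean ± SD, n = 4).

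**Figure D2:**
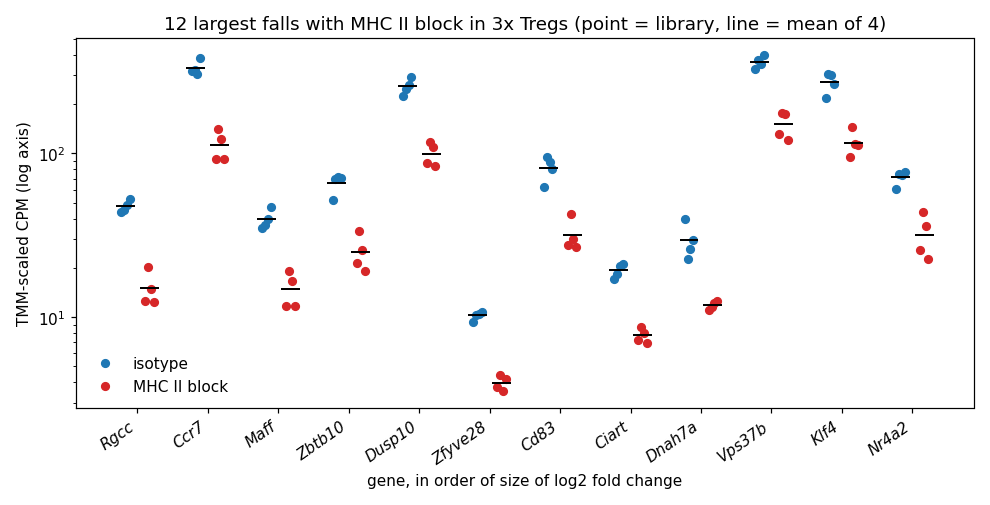
CPM in each of the 8 libraries (log axis) for the 12 genes with the largest falls along the horizontal axis, with the isotype and block groups side by side and a line at each mean of 4. The genes were chosen with no overlap, so for every gene the block libraries lie below the isotype libraries. For Rgcc they lie at 12.3 to 20.1 CPM against 43.5 to 52.5 CPM.

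Ccr7 belongs to a list of naive and central genes that moved in 1 direction. Of its 15 members 12 fell and none rose, each of the 12 without overlap between the groups, and the median was −0.55. Without block replicate 2, or with scaling by total counts, 1 member rose. Klf2, the factor that keeps T cells recirculating, was at 749, 984, 786 and 806 CPM with the isotype and 454, 564, 568 and 526 CPM with the block, and fell by 0.65 ± 0.10 (edgeR adjusted p = 6.05e-06). Il7r, the survival receptor of resting T cells, fell by 0.83 ± 0.12, and Id3, an inhibitor of E proteins, fell by 0.87 ± 0.08 (edgeR adjusted p = 3.24e-06 and 1.58e-09). Genes of the TGF-beta pathway leaned the same way, with 11 of 15 lower, 1 higher and a median of −0.23. Smad7, the inhibitory Smad that the pathway itself induces, went from 205, 186, 200 and 214 CPM to 92.8, 115, 104 and 87.0 CPM. The groups were apart, and Smad7 fell by 1.01 ± 0.07 (edgeR adjusted p = 3.73e-11). Of 21 PI3K, mTOR and Foxo genes 11 fell and 5 rose.

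The 12 largest rises among genes with no overlap and a mean over 5 CPM were Ggt1, Il21, Epha3, Gzma, Dsp, Ifitm1, Cacna1h, Ccl3, Dnase1l3, Vdr, Mzb1 and Jchain, from 3.60 to 2.99 log2. Il21, a cytokine of helper T cells that acts on B cells, was at 3.73, 1.92, 1.37 and 3.21 CPM with the isotype and 29.2, 24.0, 28.3 and 38.1 CPM with the block. The lowest block library was well above the highest isotype library, and the gene rose by 3.54 ± 0.42 (edgeR adjusted p = 1.67e-07). Vdr, the vitamin D receptor, was at 5.70, 4.87, 2.71 and 5.85 CPM and 35.7, 32.3, 39.0 and 52.0 CPM, and rose by 3.06 ± 0.31 (edgeR adjusted p = 1.47e-08). Gzma, a granule protease of cytotoxic cells that is also in the NK cell list, was at 12.3, 6.44, 8.37 and 13.3 CPM with the isotype and 91.6, 92.3, 98.6 and 188 CPM with the block. Its block levels were spread widely, with replicate 4 far above the other block libraries. Ccl3, a chemokine of activated leukocytes, went from 3.12 ± 0.295 to 26.9 ± 1.03 CPM (mean ± SD, n = 4). Mzb1 and Jchain, which serve antibody assembly in plasma cells, rose beside the plasma cell sums given above, and their source was not tested.

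**Figure D3:**
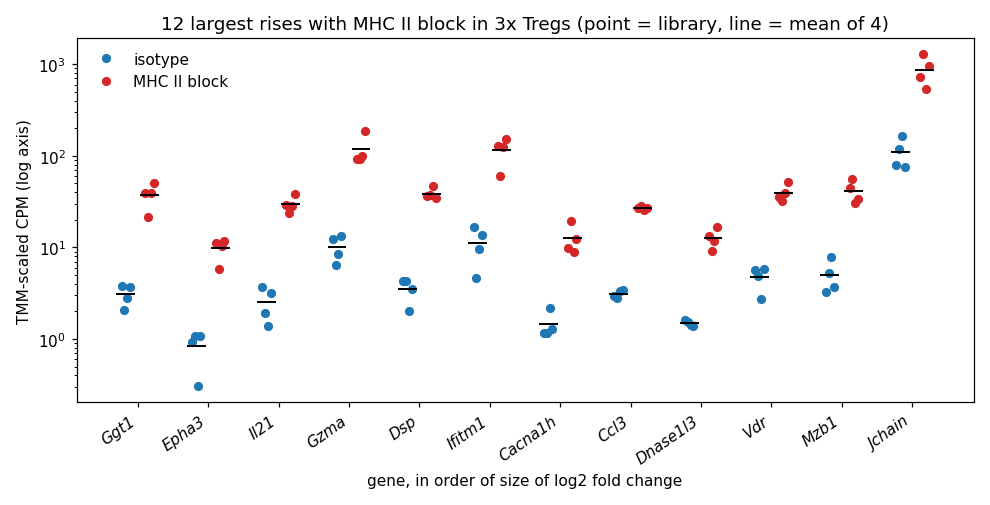
CPM in each of the 8 libraries for the 12 genes with the largest rises, with a log axis and lines at the means of 4. The genes were chosen with no overlap, so for every gene the block libraries lie above the isotype libraries. For Il21 they lie at 24.0 to 38.1 CPM against 1.37 to 3.73 CPM.

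Genes of effector Tregs rose more often than they fell, with 16 of 25 higher, 6 lower and a median of 0.35. Gzmb, the gene of the granule protease granzyme B, was at 301, 171, 216 and 248 CPM with the isotype and 819, 481, 706 and 909 CPM with the block. Lag3, an inhibitory receptor that binds MHC class II, was at 105, 88.2, 101 and 76.0 CPM and 376, 283, 396 and 369 CPM. Neither gene overlapped between the groups, and they rose by 1.94 ± 0.20 (Lag3) and 1.64 ± 0.22 (Gzmb; edgeR adjusted p = 1.46e-08 and 1.44e-06). The inhibitory receptors Havcr2 and Pdcd1 changed by 1.51 ± 0.16 and 1.08 ± 0.11, and the regulators Maf and Prdm1 by 0.76 ± 0.09 and 0.93 ± 0.09, all called. Prdm1 also stands in the plasma cell list. The NK cell and plasma cell sums given above moved with these genes, and their part in the rises was not tested. Il10, an inhibitory cytokine, rose by 0.77 ± 0.14 (edgeR adjusted p = 7.36e-05). The falls in the list included Klrg1, a receptor of terminally differentiated Tregs, with −0.80 ± 0.17, and Areg, a tissue repair factor, with −0.72 ± 0.11 (edgeR adjusted p = 0.000478 and 1.08e-05).

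Of 14 chemokine receptors 8 rose and 2 fell, with a median of 0.41. Cxcr6, a receptor of T cells in peripheral tissues, was at 28.2, 40.0, 33.6 and 34.7 CPM with the isotype and 144, 106, 129 and 147 CPM with the block. All block libraries were above all isotype libraries, and Cxcr6 rose by 1.95 ± 0.19 (edgeR adjusted p = 5.32e-09). Ccr2, a receptor for inflammatory chemokines, rose by 1.26 ± 0.13 (edgeR adjusted p = 1.02e-08). Among integrins and adhesion genes 8 of 17 rose and 5 fell, and Itga1, the collagen-binding alpha 1 chain, rose by 2.05 ± 0.20 (edgeR adjusted p = 5.32e-09). Of 16 S100, galectin and annexin genes 12 rose and 1 fell, with Lgals3 at 2.00 ± 0.19. Of 14 TNF receptor superfamily genes 6 rose and 4 fell (8 and 4 without block replicate 2, 9 and 4 with scaling by total counts). Of 16 genes of the IL-2 receptor and STAT5 targets 7 rose and 7 fell.

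Cytokines of effector T cells and related genes were added to these after their values were seen, without a fixed list. The genes given here all rose. Il17a, Il2, Il5 and Bcl6, given under other observations, were not called, and Ifng rose by a smaller amount. Il4, which marks type 2 helper cells, was at 2.52, 2.69, 1.13 and 3.14 CPM with the isotype and 13.3, 12.4, 15.0 and 22.6 CPM with the block, and rose by 2.74 ± 0.26 (edgeR adjusted p = 4.66e-09). Il13, a second type 2 cytokine, rose by 2.45 ± 0.25, and Ccl4, a chemokine of activated lymphocytes, rose by 2.20 ± 0.24. Il12rb2, part of the IL-12 receptor, and Tbx21, the type 1 factor T-bet, changed by 2.45 ± 0.15 and 1.60 ± 0.10 (edgeR adjusted p = 2.37e-12 and 2.37e-12). The NK cell sums given above rose in the same libraries, and their part in these rises was not tested.

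Genes of cell division rose together by small amounts. All 25 mitotic genes were called higher, with a median of 0.56, but only 4 of them had groups without overlap. Ube2c, the ubiquitin carrier of the anaphase promoting complex, was at 58.8, 36.9, 41.0 and 47.3 CPM with the isotype and 83.3, 64.2, 87.3 and 92.6 CPM with the block, and rose by 0.83 ± 0.16 (edgeR adjusted p = 0.000164). Cdk1, the mitotic kinase, was at 36.9, 23.1, 23.7 and 29.9 CPM and 47.1, 37.8, 48.5 and 55.3 CPM, and rose by 0.73 ± 0.15 (edgeR adjusted p = 0.000259). Mki67, a marker of cycling cells, was at 504, 328, 343 and 418 CPM and 505, 504, 539 and 610 CPM and rose by 0.44 ± 0.13 (edgeR adjusted p = 0.00858). Of 26 DNA replication genes 23 rose and 1 fell, with a median of 0.42, and 9 were without overlap. Without block replicate 2, 24 rose and none fell. Cell cycle regulators, among them cyclins and inhibitors of the G1 phase, were split into 9 higher and 2 lower of 16.

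Mitotic genes are known to share a pair of promoter elements, the cell cycle homology region TTTGAA and the NF-Y box CCAAT, so the windows of Ube2c and Cdk1 are shown with every match on either strand in capitals. Both are 250 bases before the RefSeq start in GRCm38.p6, at chr2:164769679-164769928 on the plus strand and at chr10:69352913-69353162 on the minus strand. In Ube2c a pair of the CCAAT matches, on opposite strands, overlap by 2 bases.
Ube2c: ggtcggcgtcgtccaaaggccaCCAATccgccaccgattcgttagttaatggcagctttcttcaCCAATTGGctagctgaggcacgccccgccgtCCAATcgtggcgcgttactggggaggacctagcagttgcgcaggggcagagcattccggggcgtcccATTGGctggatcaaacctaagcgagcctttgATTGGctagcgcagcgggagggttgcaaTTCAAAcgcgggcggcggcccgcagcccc
Cdk1: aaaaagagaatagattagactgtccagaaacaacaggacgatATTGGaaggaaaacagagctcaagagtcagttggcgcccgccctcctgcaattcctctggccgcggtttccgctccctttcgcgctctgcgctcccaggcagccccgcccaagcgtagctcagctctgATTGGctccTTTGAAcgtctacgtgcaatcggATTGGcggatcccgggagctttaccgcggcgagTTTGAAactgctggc
Ube2c held 6 CCAAT matches and 1 TTTGAA match, and Cdk1 held 3 and 2. Of the 20 mitotic genes with a window, 15 (75.0%) held TTTGAA and 18 held CCAAT, against 20.2% and 41.1% of all 27025 genes with a window. Among all tested genes with a window the shares were 14.6% and 42.9%.

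Other gene groups of growing cells moved unequally. The proteasome list had 24 of 25 members higher and none lower, with a median of 0.24. Oxidative phosphorylation genes had 22 of 35 higher and 1 lower, with a median of 0.18, and without block replicate 2 they had 29 higher and none lower. Of 22 glycolysis genes 13 rose and 5 fell, and of 31 sterol and fatty acid synthesis genes 9 rose and 3 fell, a share of rises close to that of all genes (14 and 2 with scaling by total counts). Ribosome biogenesis genes went the other way, with 2 of 25 higher, 13 lower and a median of −0.13. Of 21 ATF4 and amino acid genes 9 rose and 4 fell, of 24 chaperones 10 rose and 5 fell (10 and 2 with total counts), of 14 apoptosis genes 3 rose and 7 fell, and of 8 GIMAP genes 3 rose and 1 fell.

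Interferon-stimulated genes rose without exception among those called, 20 of 30 with none lower and a median of 0.31. Isg15, the ubiquitin-like modifier of the interferon response, was at 21.4, 23.5, 25.3 and 21.2 CPM with the isotype and 41.7, 45.5, 42.9 and 39.2 CPM with the block. The groups did not overlap, and Isg15 rose by 0.89 ± 0.10 (edgeR adjusted p = 7.6e-08). Ifit3, an antiviral member of the Ifit family, rose by 1.20 ± 0.15 (edgeR adjusted p = 5.01e-07), with the reservation that reads of its near-identical copy Ifit3b (1.32 log2) may be divided between the 2 genes. Ifit1, an RNA sensor of the same family, rose by 0.57 ± 0.15 (edgeR adjusted p = 0.00299), with block replicate 2 far above the other block libraries at 72.1 CPM and a change of 0.38 without it (edgeR adjusted p = 0.0251).

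The interferon-stimulated response element, written here as a pair of GAAA separated by 2 bases of any kind, is the site bound by the interferon-activated transcription complex, and the windows of Isg15 and Ifit3 are shown with each match on either strand in capitals. They are 250 bases before the RefSeq start in GRCm38.p6, at chr4:156200819-156201068 on the minus strand and at chr19:34583279-34583528 on the plus strand. The 3 matches of Isg15 overlap and form 1 run.
Isg15: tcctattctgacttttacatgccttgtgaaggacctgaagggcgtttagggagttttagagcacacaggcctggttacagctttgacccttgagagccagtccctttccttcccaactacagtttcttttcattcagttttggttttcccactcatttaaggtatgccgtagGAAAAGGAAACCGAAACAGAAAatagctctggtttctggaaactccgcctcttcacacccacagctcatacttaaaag
Ifit3: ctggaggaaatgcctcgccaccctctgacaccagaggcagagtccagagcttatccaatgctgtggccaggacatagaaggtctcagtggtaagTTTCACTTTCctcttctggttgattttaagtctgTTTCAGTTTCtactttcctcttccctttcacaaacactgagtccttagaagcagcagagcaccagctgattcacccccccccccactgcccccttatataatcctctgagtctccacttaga
Of 23 interferon-stimulated genes with a window, 13 (56.5%) held the element, against 3.99% of all genes with a window.

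**Figure D4:**
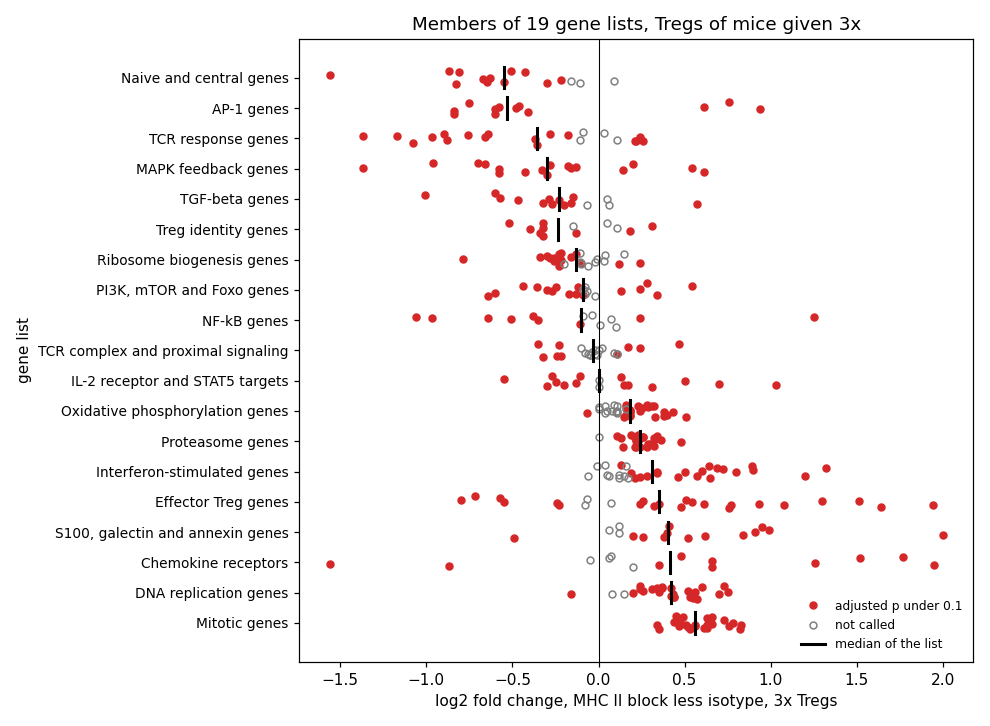
The log2 fold change (block over isotype, horizontal axis) of each tested member of 19 gene lists, with filled points for called genes, open points for the others and a bar at the median of each list. Every called mitotic, proteasome and interferon-stimulated gene lies to the right of 0, and every called naive and central gene to the left.

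Genes that the study names from its green and turquoise co-expression modules were counted too, although those modules were derived from these samples and are no independent evidence of a direction. All 8 green module genes fell, with a median of −0.53. Of 28 turquoise module genes 16 rose and 5 fell, with a median of 0.17.

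The effect of the block under 3x was set against its effect with the other treatments by interaction contrasts in the same fit, each of which uses the same 8 libraries given 3x. Block against isotype called 1751 genes (14.1%) with PBS, of which 744 were higher (6.00%) and 1007 lower (8.13%). It called 3799 (30.7%) with H16R, 1913 higher (15.4%) and 1886 lower (15.2%), and 4158 (33.6%) with WT, 2259 higher (18.2%) and 1899 lower (15.3%). The effect under 3x differed from that with PBS in 4835 genes (39.0%), being higher with 3x in 2516 (20.3%) and lower in 2319 (18.7%). The split was 3172 higher and 1990 lower with all biotypes and 653 and 69 at 1 log2 or more, and the majority turned without block replicate 1, 3 or 4 under 3x, to 2034 higher and 2129 lower without the last. It differed from that with WT in 5424 (43.8%), higher in 2570 (20.7%) and lower in 2854 (23.0%), a majority that turned in other settings, to 2993 higher and 2367 lower with total counts and to 2906 and 2595 in DESeq2. It differed from that with H16R in 285 (2.30%), higher in 157 (1.27%) and lower in 128 (1.03%). The count against H16R rested on single libraries, with 692 genes without block replicate 2 under 3x and 98 without block replicate 4 under 3x. Of the 3799 genes called with H16R, 3325 were also called with 3x, which is 87.5% of the H16R calls and 49.6% of the 3x calls, and 3316 of them had the same direction. The shared calls with PBS were 1083 (61.9% of the PBS calls), 715 in the same direction, and with WT 2485 (59.8% of the WT calls), 1496 in the same direction. Across the 12392 genes, which are not independent replicates, Spearman's rho between the fold changes was 0.79 for 3x and H16R, 0.01 for 3x and PBS and 0.13 for 3x and WT.

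The gene groups followed different patterns over the treatments. TCR response genes had medians below 0 with every treatment: −0.36 with 3x, −0.42 with PBS, −0.17 with H16R and −0.43 with WT. Naive and central genes had a median of −0.55 with 3x, 0.03 with PBS, −0.25 with H16R and 0.10 with WT, and the genes called lower were 12, 2, 9 and 5 of 15. In the interactions, a more negative effect with 3x was called in 14 of the 15 genes against PBS, in 12 against WT and in 1 against H16R. A gene not called against H16R is not shown to have the same effect with both. The gene called against H16R was Ccr7, whose change was −1.56 with 3x, −0.64 with PBS and −0.63 with H16R. The difference from PBS was −0.92 ± 0.18 (edgeR adjusted p = 0.000411) and that from H16R −0.94 ± 0.18 (edgeR adjusted p = 0.00761). Effector Treg genes had a median of 0.35 with 3x, with 16 of 25 higher and 6 lower, and of 0.12 with H16R (10 and 8), −0.11 with PBS (1 and 6) and −0.51 with WT (0 and 19). In the same WT comparison 10 of 12 Treg identity genes and 6 of 6 tested T cell markers fell, while 11 of 11 B cell markers and 9 of 9 monocyte and macrophage markers rose. The Treg identity genes summed to 6040 to 6650 CPM with isotype and 3870 to 4920 CPM with block, and the B cell markers to 6500 to 8420 and 12900 to 31400 CPM. Without block replicate 1 of the WT group, a library that stood apart, 17 effector Treg genes fell and none rose, 8 Treg identity genes fell, and 2 B cell markers and 3 monocyte and macrophage markers rose. The part of other cells in the WT values was not tested. Mitotic genes rose in 25 of 25 with 3x and in 23 of 25 with H16R, while none was called with PBS or with WT. For 16 of them the effect with 3x was higher than that with PBS in the interaction, and none was called in the interaction with H16R. Interferon-stimulated genes were higher in 20 of 30 with 3x, in 8 with PBS, in 14 with H16R and in 13 with WT, and lower in 3 with WT and in none with the others.

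Single genes show how far the treatments diverged. Il21 was at 5.85 ± 5.07 CPM with isotype and 3.61 ± 1.17 CPM with block in mice given WT, and at 5.65 ± 3.78 and 13.9 ± 1.89 CPM in mice given H16R (mean ± SD, n = 4). The effect with 3x exceeded that with WT by 4.22 ± 0.58 (edgeR adjusted p = 3.45e-06) and that with H16R by 2.25 ± 0.56 (edgeR adjusted p = 0.0418), the last a call that was lost without isotype replicate 4 under H16R or block replicate 4 under 3x. Vdr stood at 11.8 ± 7.81 CPM with isotype and 4.73 ± 1.52 CPM with block under WT, and its effect with 3x exceeded that with WT by 4.37 ± 0.44 (edgeR adjusted p = 3.38e-08). Rgcc fell further with 3x than with H16R, by a difference of −0.93 ± 0.17 (edgeR adjusted p = 0.00494). Among genes with a mean over 5 CPM, Gzma had the largest positive difference from PBS after Scd1, at 4.25 ± 0.53 (edgeR adjusted p = 2.36e-06). Markers of other cells moved with these differences, since with the block under PBS 9 of 11 B cell, 8 of 10 MHC class II and 3 of 8 NK cell markers fell. The PBS libraries varied, and these sums overlapped between the antibodies. With isotype and block the B cell markers summed to 9200 to 17100 and 5000 to 17400 CPM. The MHC class II genes summed to 877 to 2780 and 475 to 897 CPM, and the NK cell markers to 72.0 to 88.8 and 66.6 to 73.5 CPM. In the interaction with PBS 11 of 11 B cell, 8 of 8 plasma cell and 7 of 8 NK cell markers were positive, and their part was not tested. With the same limit of 5 CPM, Ifit1 had the most negative difference from PBS, at −1.26 ± 0.21 (edgeR adjusted p = 9.31e-05). Its change was 1.83 with PBS and 0.57 with 3x.

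**Figure D5:**
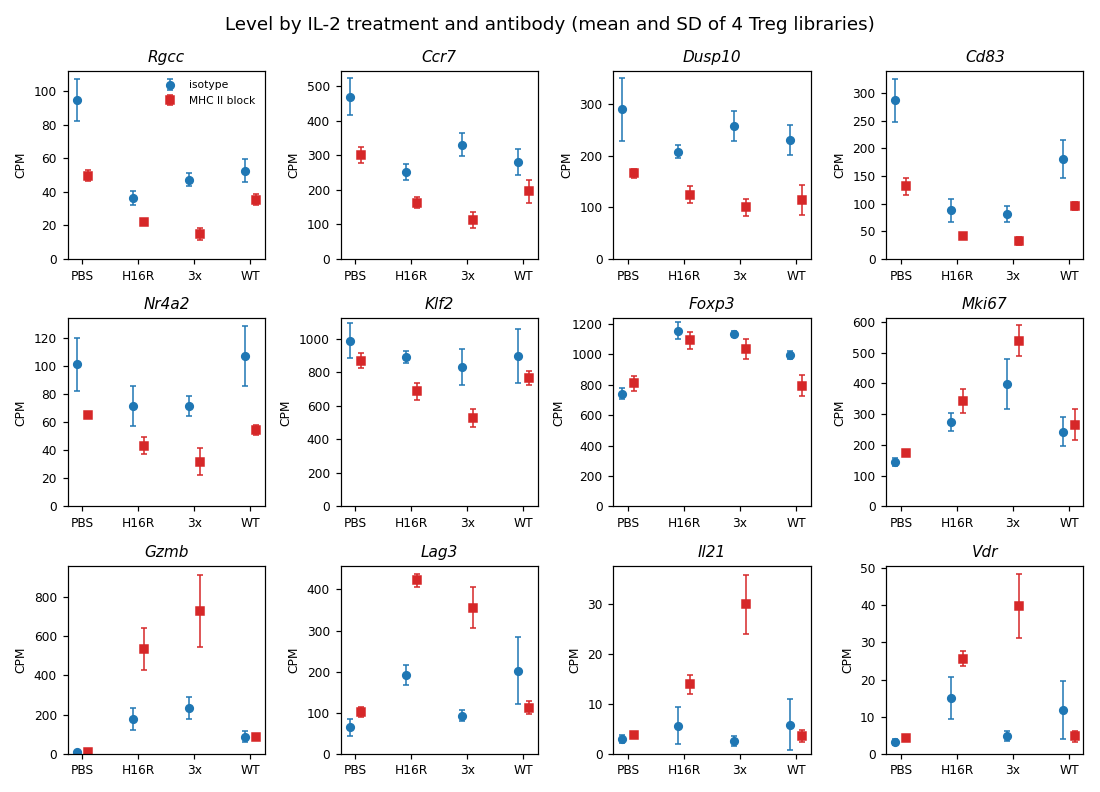
Mean CPM with SD (n = 4 libraries) of 12 genes in Tregs of mice given PBS, H16R, 3x or WT, isotype and MHC II block side by side. Under 3x the block means of Rgcc, Ccr7, Dusp10, Cd83, Nr4a2 and Klf2 lie below the isotype means and those of Mki67, Gzmb, Lag3, Il21 and Vdr above them, with Foxp3 close to its isotype level.

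Tcons of mice given 3x, 2 with each antibody, served as a second cell type. Their labels match those of Treg replicates 1 and 2 of each antibody, so both cell types came from the same animals. Shared changes are therefore no agreement between separate mice. There 4901 of 12526 genes (39.1%) were called, 2586 higher (20.6%) and 2315 lower (18.5%). Without any 1 of the 4 libraries, 2450 to 3111 were called, the fewest without isotype replicate 2. Of the 12055 genes tested in both cell types, 3194 were called in both, 3000 of them in the same direction, and Spearman's rho between the fold changes was 0.59 across genes. Naive and central genes had 12 of 15 lower and none higher in Tcons as well, with a median of −0.49, and TCR response genes had a median of −0.39. Mitotic genes were higher in 25 of 25 with a median of 1.23. Ribosome biogenesis genes rose in Tcons, with 18 of 25 higher, 1 lower and a median of 0.32, whereas their median in Tregs was −0.13. B cell markers fell in 11 of 11 in Tcons, with a median of −1.57, while 5 of 11 rose and none fell in Tregs. Markers of other cells were higher in Tcons with the block, with 7 of 7 neutrophil, 9 of 10 dendritic cell, 6 of 8 plasma cell, 6 of 9 monocyte and macrophage, 6 of 10 MHC class II, 4 of 8 NK cell and 3 of 8 erythroid markers called higher. The only other-cell marker outside the B cell list that fell was 1 MHC class II gene. The part of these cells in the Tcon mitotic and ribosome biogenesis rises was not tested. The difference between the cell types was not tested.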

How the data were processed

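Splenic Treg and Tcon RNA of 48 libraries (stranded mRNA sequencing) was aligned by the authors with OSA in Omicsoft Array Suite to the mouse B38 genome, and genes were quantified by Omicsoft's RSEM against a gene model that the methods name GENCODE v19. They deposited expected counts per gene, not normalized, and FPKM, scaled by the authors by transcript length and mapped reads. They also deposited tables of their own DESeq2 comparisons (fold changes and FDR), which were not used. Columns were assigned by the sample descriptions and grouped by the labels.

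Expected counts were rounded. Genes annotated as protein-coding in GENCODE M21 (GRCm38) with no empty cell and over 0.5 CPM in at least 4 libraries were scaled by TMM and tested with edgeR's quasi-likelihood test (edgeR 4.0.16, R 4.3.3) over 32 Treg libraries in 8 groups, with Benjamini-Hochberg adjustment and calls at 0.1. CPM were TMM-scaled. Interactions used the same fit, and Tcons a fit of their own over 16 libraries. The fit was tested on simulated data. Alternatives were DESeq2 1.42.0, limma 3.58.1 on log2(FPKM + 1) and log2(FPKM + 0.1), other scalings and filters, a replicate block and the omission of each library.

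Named genes were the 12 largest rises and 12 largest falls without overlap and with a mean over 5 CPM, the 4 largest interactions in each direction, and list members. Members and lists were chosen with earlier results of these data known. Promoter windows are from RefSeq (GRCm38.p6). Results for 2 list members are not reported here.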

Additional observations from a re-analysis of the deposited data

Results flagged for a closer look

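The effect of the block under 3x differed from its effect with PBS in 4835 genes, with WT in 5424 and with H16R in 285, each by an interaction contrast in edgeR's quasi-likelihood test. Among genes with a mean over 5 CPM, the largest positive differences from PBS were those of Scd1 (4.31), Gzma (4.25), Pax5 (3.97) and Ggt1 (3.85), and the largest negative ones those of Ifit1 (−1.26), Actn2 (−1.05), Gm47283 (−1.02) and Nrn1 (−1.01), all on the log2 scale. Pax5 is a B cell marker and Gzma stands in the NK cell list, and 11 of 11 B cell and 7 of 8 NK cell markers were positive in the same contrast. Under PBS the summed B cell and NK cell markers overlapped between isotype and block libraries. Against H16R the largest differences were Cd109 (2.96), Mcpt1 (2.43), Vdr (2.28) and Il21 (2.25) on the positive side and Xcl1 (−1.04), Ccr7 (−0.94), Rgcc (−0.93) and Zfyve28 (−0.91) on the negative side. Against WT they were Vdr (4.37), Il21 (4.22), Spp1 (3.87) and Gcg (3.76), and Lrp1 (−3.48), Itgad (−3.20), Mpeg1 (−1.73) and Nfam1 (−1.52). Without block replicate 1 of the WT group the differences of Lrp1 and Mpeg1 were both −0.51 and no longer called. Against H16R, Cd109 (1.89) and Il21 (1.67) were no longer called without isotype replicate 4 of that group, Il21 (2.10) also not without block replicate 4 under 3x, and Xcl1 not without isotype replicate 3 or block replicate 1 or 2 under H16R, nor without isotype replicate 2 or 4 or block replicate 1, 3 or 4 under 3x. The difference of Gm47283 from PBS was no longer called without isotype replicate 4 or block replicate 3 or 4 under PBS, nor without isotype replicate 2 or 4 or block replicate 4 under 3x.

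In 17 of 222 groups of 4 libraries examined, 1 library lay apart from the other 3 by Dixon's criterion, which chance meets in about 1 group in 20. Block replicate 2 accounted for 7 of the 17. It was high for Ifit1 (72.1 CPM), Ifit3 (34.9 CPM), Ifit3b (7.67 CPM), Il7r (164 CPM), Ncr1 (10.0 CPM) and Actn2 (5.49 CPM) and low for Zap70 (305 CPM). Without that library the changes were 0.38 (edgeR adjusted p = 0.0251) for Ifit1 (0.57 with it), 1.04 (edgeR adjusted p = 2.03e-06) for Ifit3, 1.11 (edgeR adjusted p = 3.68e-06) for Ifit3b, −0.67 (edgeR adjusted p = 0.000704) for Actn2, −0.93 (edgeR adjusted p = 1e-06) for Il7r, 1.78 (edgeR adjusted p = 2.01e-07) for Ncr1 and 0.53 (edgeR adjusted p = 3.41e-08) for Zap70. Block replicate 3 was high for the B cell gene Pax5 (17.0 CPM) and for the fatty acid desaturase Scd1 (10.5 CPM). Block replicate 4 was high for Gzma (188 CPM) and for the summed CD8 genes (35.7 CPM). Isotype replicate 1 was low for Zbtb10 (51.9 CPM), Sik1 (552 CPM), Fosb (865 CPM) and Ifng (26.0 CPM), block replicate 4 low for Ifng (47.2 CPM) and isotype replicate 3 high for Cacna1h (2.17 CPM).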

How the results depend on the processing

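Depth (35.46 to 49.91 M expected counts) left little sampling error in genes over 5 CPM. The count of 6705 genes under 3x ranged from 5813 to 6966 when any 1 of the 8 libraries was left out, and was 658 when a change of at least 1 log2 was also required (597 higher and 61 lower). The split of 3368 higher and 3337 lower turned without block replicate 1 (2923 and 3048), 3 (3005 and 3144) or 4 (2849 and 2964). DESeq2 called 6769. Scaling by total counts alone moved the split to 4023 higher and 2642 lower, limma on log2(FPKM + 0.1) to 3906 and 2546. The median over all tested genes was −0.003, 0.038 with total counts, and 0.02 to 0.04 with DESeq2's size factors, without the CPM filter, with all biotypes and in limma on FPKM.

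The differences from PBS numbered 4835, 4102 to 5666 without single libraries and 722 at 1 log2 or more (653 higher and 69 lower). Their split of 2516 higher and 2319 lower was 2791 and 1988 with total counts and 3172 and 1990 with all biotypes, and turned without block 3x replicate 1 (2078 and 2125), 3 (2177 and 2275) or 4 (2034 and 2129). Those from WT numbered 5424, 4657 to 5902 without single libraries and 516 at 1 log2 or more (293 higher and 223 lower). Their split of 2570 higher and 2854 lower turned to 2839 and 2528 with DESeq2's size factors, 2993 and 2367 with total counts, 2906 and 2595 in DESeq2, 2987 and 2158 in limma on log2(FPKM + 1), 2958 and 2165 on log2(FPKM + 0.1), 3052 and 1917 without the CPM filter, 3470 and 2198 with all biotypes, and 3061 and 2264 with only the groups of the contrast (3048 and 2178 with the replicate block). It also turned without block 3x replicate 1 (2479 and 2195), 3 (2563 and 2309) or 4 (2437 and 2220), isotype 3x replicate 4 (2473 and 2466) or isotype WT replicate 2 (2680 and 2445). The 285 differences from H16R were the least settled. They became 177 without the CPM filter, 611 with only the groups of the contrast, 490 with DESeq2, 35 at 1 log2 or more (32 higher and 3 lower) and 129 at an adjusted p under 0.05. Their split was 184 higher and 96 lower with total counts and 160 and 75 with all biotypes, against 157 and 128. Without single libraries they ranged from 98 to 692: 692 without block 3x replicate 2, and 126, 161 and 98 without replicates 1, 3 and 4 of that group, 145 and 135 without isotype 3x replicates 2 and 4, 154 without isotype H16R replicate 1, and 123, 174 and 188 without block H16R replicates 1, 2 and 4. The Tcon count of 4901 fell to 2450 to 3111 without any 1 of its 4 libraries, where the lone library left in a group is assumed to vary like the other groups. The cause of these shifts was not tested.

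The labels' replicate numbers do not pair mice. Deviations of same-numbered libraries correlated at −0.063 to 0.225 and others at −0.3 to 0.163, and 2 of 4 isotype libraries correlated best with their own number. With a replicate block 6749 genes were called under 3x (7292 with only the groups of the contrast, where the differences from H16R numbered 738).

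Scaling by total counts moved the medians of sterol genes from 0.11 to 0.15 and of ribosome biogenesis genes from −0.13 to −0.08. With it 1 cell cycle regulator fell, no DNA replication or oxidative phosphorylation gene did, and 2 neutrophil markers and 1 T cell marker rose. In FPKM the log2 ratios of the summed markers were 2.56 (B cell), 2.25 (plasma cell), 0.92 (MHC class II), 0.53 (dendritic cell) and 0.01 (T cell). Without single libraries, the uncalled changes of Egr1 (−0.03 to 0.09), Bcl6 (−0.05 to 0.07) and Il17a (−0.07 to 0.59) changed sign, each without isotype replicate 1 and the first 2 also without block replicate 2 (−0.00 and −0.02).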

Other observations

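Some genes were singled out because their falls were larger with 3x than with the other treatments, so their values are given as a description with no test. Sik1, a kinase induced by cAMP, was at 552, 668, 662 and 658 CPM with the isotype and 238, 388, 305 and 256 CPM with the block. Tsc22d3, a target of glucocorticoids and Foxo factors, was at 458, 456, 409 and 445 CPM and 178, 240, 220 and 211 CPM. The groups did not overlap in either gene. The log2 change of Sik1 was −1.10 with 3x, −0.50 with PBS, −0.54 with H16R and −0.33 with WT, and that of Tsc22d3 was −1.06, −0.31, −0.48 and −0.19. For the clock gene Per1 the changes in the same order were −1.06, −0.37, −0.53 and −0.41, and for the zinc finger factor Klf6 −1.05, −0.39, −0.56 and −0.28.

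Other cytokine genes of helper T cells were also looked at after their values were seen. Their p values therefore describe the chosen genes and are no test of the group. Ifng, the type 1 cytokine, was at 26.0, 31.9, 32.1 and 31.6 CPM with the isotype and 49.0, 48.8, 49.0 and 47.2 CPM with the block and rose by 0.67 ± 0.11 (edgeR adjusted p = 2.58e-05). Cd40lg, the helper signal to B cells, rose by 0.71 ± 0.12 (edgeR adjusted p = 1.83e-05). Il17a (0.27 ± 0.57), Il2 (−0.66 ± 0.48), Il5 (0.68 ± 0.47) and Bcl6 (0.03 ± 0.07) were not called, with Il17a, Il2 and Il5 below 1 CPM in all 8 libraries. Tnf, an inflammatory cytokine, was called at 0.23 ± 0.10 with 3x (edgeR adjusted p = 0.0573), but not without isotype replicate 1 or 4 or block replicate 2, and its change with PBS was 0.97.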
